A study of Rattus norvegicus with 12 samples.

Results

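Pancreatic islet RNA was compared between Sprague-Dawley rats born to dams with diet-induced gestational diabetes (GDM) and rats born to lean dams, where both sets of offspring ate the same low-fat (LF) food after weaning. All libraries titled as GDM or Lean low fat were taken, which gave 6 of the 12 libraries of the series, 3 per group. In the GDM-LF group the dams had eaten a high-fat, high-sucrose (HFS) diet with 45% fat. In the Lean-LF group the dams had eaten a LF diet with 10% fat. Each diet had 6 dams, fed for 6 weeks before mating and on through pregnancy and suckling, all mated with LF-fed males. The pups then had 12 weeks of LF food, and islets were picked by hand after collagenase digestion at 15 weeks of age. Here "GDM" names the dam's diet arm, so diabetes in pregnancy cannot be told apart from the diet that produced it, or from suckling on dams fed that diet. Sex, litter and whether a library is a single animal are not stated in the labels, and p-values therefore measure only how these libraries vary. The other 6 libraries, GDM-HFS and Lean-HFS, came from offspring weaned onto the HFS diet, with 3 libraries each. They entered the same fit, so that all 4 groups share an estimate of the spread.

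Islets are clusters of endocrine cells in which insulin-secreting beta cells are the majority in rodents, beside alpha cells (glucagon), delta cells (somatostatin) and PP cells (pancreatic polypeptide). Beta cells take up glucose through Slc2a2, metabolise it, close ATP-sensitive potassium channels (Kcnj11 and Abcc8) and release insulin granules when calcium enters. Islet cells and resident macrophages can also make chemokines and cytokines. In many cell types this runs through the transcription factor NF-kB, which interleukin 1 and tumour necrosis factor activate.

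Values are scaled values, the deposited depth-scaled reads after rescaling between libraries, where 1 read was worth between 0.199 and 0.423 deposited units in the 6 libraries. They are not divided by gene length, so they compare libraries and not genes. Gene reads numbered between 13967330 and 21345209 in GDM-LF libraries, and between 14658004 and 27492858 in Lean-LF libraries. Insulin (Ins1 and Ins2) took between 22.0% and 34.4% of reads outside ribosomal RNA (rRNA) in GDM-LF libraries and between 28.8% and 30.8% in Lean-LF libraries, so beta cell RNA was abundant in all 6. rRNA entries held 8.55%, 8.35% and 7.0% of gene reads in GDM-LF libraries 1 to 3, against 11.3%, 30.4% and 1.84% in Lean-LF libraries 1 to 3.

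Single libraries stood apart. GDM-LF 2 had a mean log2 level of acinar (digestive enzyme) markers of 13.06, against 8.53 to 9.99 in the other 5 LF libraries, and also the highest erythrocyte, immediate early, interferon and chemokine levels. GDM-LF 1 had the highest stellate cell and matrix level, 8.44 against at most 6.80 elsewhere, and the lowest macrophage level, 2.57 against at least 3.76. Lean-LF 3 was the deepest library, had the least rRNA, and correlated more closely over genes with GDM-LF 3 (Pearson r = 0.982) than with Lean-LF 1 (r = 0.975) or Lean-LF 2 (r = 0.968). A length measure, the median deviation of genes under 1000 bases minus that of genes of 4000 bases or more, was -0.07, 0.56 and 0.14 in GDM-LF libraries, against -0.72, -0.73 and -0.08 in Lean-LF libraries (exact two-sided permutation test, p = 0.1, the smallest that 3 against 3 allows). GDM-LF 1 and GDM-LF 2 also carry the letter K in their titles and the other 4 the letter G, with no meaning given. What part these differences have in the results was not tested beyond the values given beside each of them.

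**Figure D1:**
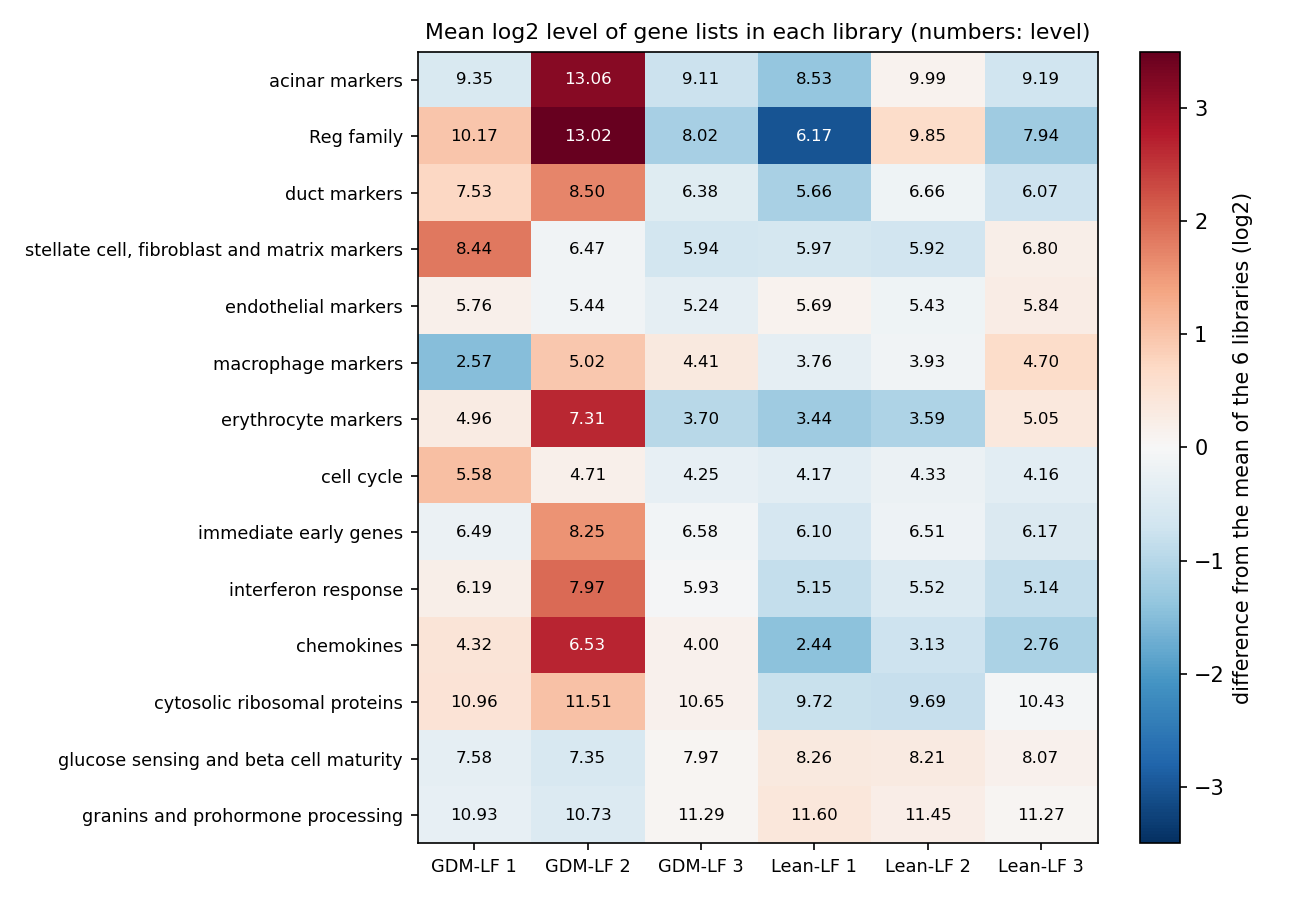
Mean log2 level of the tested members of 14 gene lists (rows) in the 3 GDM-LF and the 3 Lean-LF libraries (columns); the number is the level and the colour its difference from the mean of the 6 libraries. GDM-LF 2 has the highest acinar level, 13.06, and GDM-LF 1 the highest stellate cell and matrix level, 8.44.

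Between GDM-LF and Lean-LF islets, 25 of 79 cytosolic ribosomal protein genes and 4 of 20 chemokine genes rose, and 2 of 20 genes of glucose sensing and beta cell maturity fell. Of 12339 genes tested, 195 passed an adjusted p of 0.05 (1.58%; limma on log2 of the scaled value plus 1, Benjamini-Hochberg adjustment over all genes). Of these, 105 rose (0.851% of genes tested) and 90 fell (0.729%). In all 195, the 3 GDM-LF libraries lay wholly above or wholly below the 3 Lean-LF libraries, as they did for 12.9% of all tested genes above and 12.4% below.

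These calls sat just inside the threshold. Their adjusted p-values ran from 0.0477 to 0.0491, and 3278 genes (26.6%) had an unadjusted p under 0.05, 1694 of them higher (13.7%) and 1584 lower (12.8%). Without GDM-LF 2 no gene passed (lowest adjusted p 0.163, 2265 genes at an unadjusted p under 0.05), and none passed without GDM-LF 1, Lean-LF 1 or Lean-LF 2. Without GDM-LF 3, 1680 genes passed, and without Lean-LF 3, 1726. All 195 genes kept their direction and an unadjusted p under 0.05 in each of these 6 fits. Their direction could not change there, since their groups did not overlap, and they were picked on these same libraries. On the recovered reads, edgeR's quasi-likelihood test called 0 genes (lowest adjusted p 0.0503) and DESeq2 called 1688, among them 194 of the 195. With no rescaling between libraries, which moved the median log2 fold change of all genes to -0.17 from 0.05, 80 genes rose and 406 fell.

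The chemokines, secreted proteins that recruit leukocytes, had the largest median of the lists apart from the 4 genes of the Reg family. All 20 tested chemokines had a log2 fold change above 0, as did 53.4% of all tested genes. Of them 14 lay wholly above the Lean-LF libraries (12.9% of all tested genes). Ccl22, Ccl2, Cxcl2 and Ccl20 rose, 4 of the 20 (0.851% of all tested genes). The list's median log2 fold change was 1.91, against 0.05 over all tested genes, 1.17 without GDM-LF 2 and 1.95 without Lean-LF 3. It was 2.21 with the 4 members at 0 in all Lean-LF libraries set to the bound that 3 reads per library allow. GDM-LF 2 was the highest library for 17 of the 20 (28.9% of all tested genes), and GDM-LF 3 lay above every Lean-LF library for 17 of the 20 (29.6% of all tested genes).

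Ccl2, the main monocyte attractant (rn5 chr10:69047091-69048889, plus strand), had scaled values of 1100, 6321 and 404 in GDM-LF libraries, against 53.8, 99.6 and 157 in Lean-LF libraries. Every GDM-LF library was above every Lean-LF library, and GDM-LF 2 was far above the other 5. The log2 fold change was 3.89 ± 0.85 (SE; limma adjusted p = 0.0477), and 2.81 without GDM-LF 2 or 4.79 without GDM-LF 3. Ccl22, a ligand of the T cell receptor CCR4, had 29.4, 91.2 and 1.75 in GDM-LF libraries and 0 in all 3 Lean-LF libraries. Its GDM-LF mean was at least 47.0-fold higher than a floor of 3 reads in each Lean-LF library, and at least 17.9-fold higher without GDM-LF 2. GDM-LF 3 alone was close to that floor. Cxcl2, a neutrophil attractant (rn5 chr14:18640312-18642357, minus strand), had 67.0, 610 and 81.0 in GDM-LF libraries, against 4.26, 22.6 and 10.8 in Lean-LF libraries. The lowest GDM-LF value was about 3 times the highest Lean-LF value, with a log2 fold change of 3.73 ± 0.80, and 2.72 without GDM-LF 2. Ccl20, which attracts cells bearing CCR6, had 14.3, 22.7 and 12.8 in GDM-LF libraries, against 3.73, 4.35 and 3.99 in Lean-LF libraries. Here the GDM-LF libraries lay close together, and the log2 fold change was 1.77 ± 0.40, or 1.54 without GDM-LF 2.

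Other chemokines were higher in GDM-LF libraries without passing. The neutrophil attractant Cxcl1 had 181, 1823 and 176 in GDM-LF libraries, against 10.4, 61.8 and 29.1 in Lean-LF libraries (log2 3.81 ± 0.93, limma adjusted p = 0.0519). The groups did not overlap, and the spread within each was wide. The monocyte attractant Ccl7 had 117, 951 and 74.3, against 26.6, 32.6 and 38.4 (limma adjusted p = 0.0548). Cxcl10, a target of interferon, had 34.2, 134 and 67.9, against 19.4, 57.8 and 19.4, and its groups overlapped (limma adjusted p = 0.15).

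**Figure D2:**
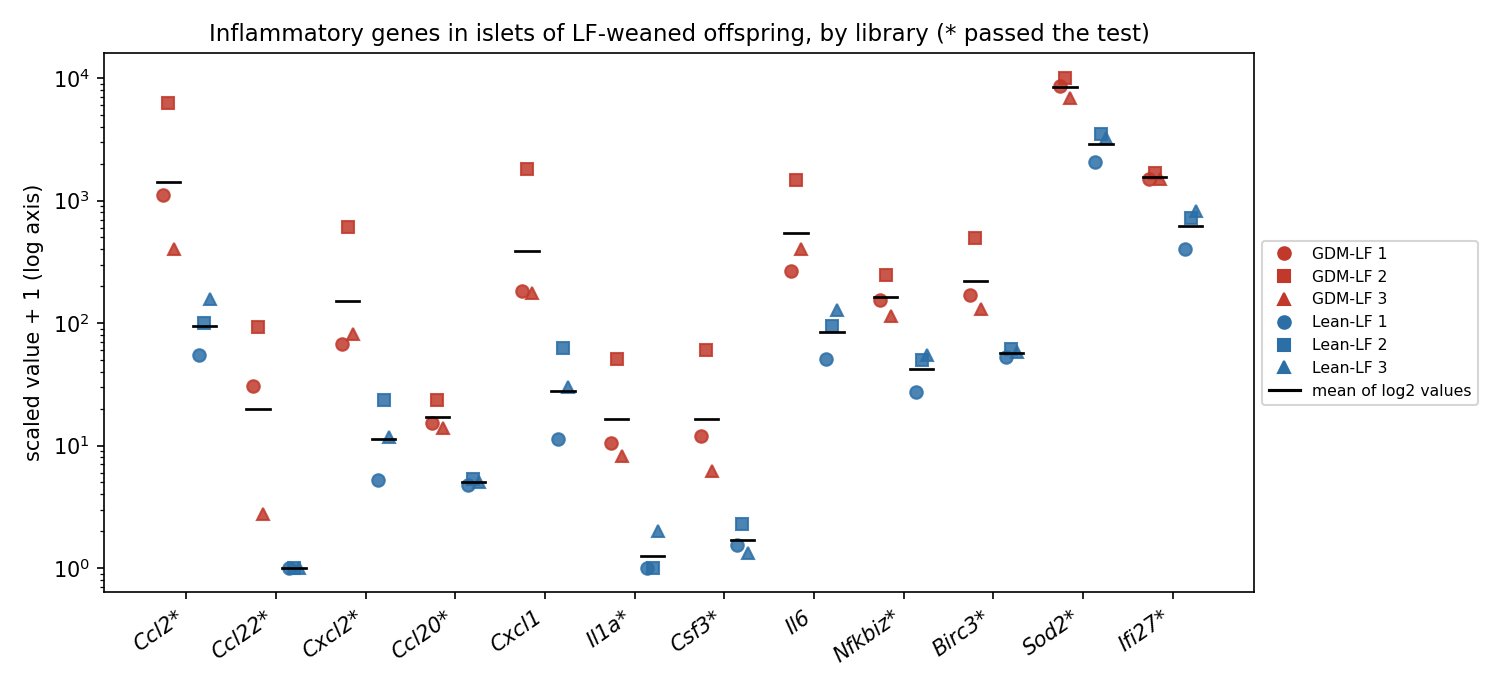
Scaled value plus 1 (log axis) of 12 inflammatory genes in each GDM-LF library (red, left) and Lean-LF library (blue, right); the marker shape gives the library number, bars are means of the log2 values, and an asterisk marks genes that passed the test. GDM-LF 2 (square) is the highest library for each gene, and for the 10 marked genes all GDM-LF points lie above all Lean-LF points.

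Among 21 cytokines, growth factors and their receptors, 2 rose and none fell, where 0.851% of all tested genes rose. The list's median log2 fold change was 1.25 (0.78 without GDM-LF 2). Il1a, the alpha form of interleukin 1, had 9.41, 49.4 and 7.28 in GDM-LF libraries, against 0, 0 and 0.997 in Lean-LF libraries, all low values. The groups lay apart, with a log2 fold change of 3.70 ± 0.82, or 2.88 without GDM-LF 2. Csf3, the granulocyte colony-stimulating factor, had 10.9, 58.9 and 5.24, against 0.532, 1.3 and 0.333 (log2 3.30 ± 0.69), or log2 2.36 without GDM-LF 2 and 4.0 without GDM-LF 3. Il1b had 8.28, 105 and 21.3, against 0.266, 2.61 and 3.99, and did not pass (limma adjusted p = 0.0743). Il6 had 267, 1481 and 400, against 49.5, 93.1 and 128, and did not pass either (limma adjusted p = 0.0532). For both the groups lay apart. Tnf was low, at 4.52, 6.74 and 0 against 0.532, 0.869 and 0, with GDM-LF 3 and Lean-LF 3 at 0 (limma adjusted p = 0.284).

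Of 21 NF-kB subunits and targets, 3 rose and none fell, and 15 lay wholly above the Lean-LF libraries (median log2 1.21, 0.87 without GDM-LF 2). Over all tested genes 0.851% rose and 12.9% lay wholly above. Nfkbiz, an inducible nuclear regulator of NF-kB (rn5 chr11:50420563-50447282, plus strand), had 155, 247 and 113 in GDM-LF libraries, against 26.1, 49.1 and 54.3 in Lean-LF libraries. The lowest GDM-LF library was about 2 times the highest Lean-LF library, with a log2 fold change of 1.96 ± 0.35, and 1.66 without GDM-LF 2. Birc3, an inhibitor of apoptosis, had 168, 493 and 128, against 51.4, 60.0 and 57.0, with the Lean-LF libraries close together (log2 1.95 ± 0.38). Sod2, a superoxide-detoxifying enzyme of mitochondria that NF-kB can induce, had 8633, 10113 and 6830, against 2080, 3514 and 3233 (log2 1.55 ± 0.30, 1.42 without GDM-LF 2). Its GDM-LF libraries were within a narrow range of each other. The inhibitor Nfkbia had 347, 1244 and 367, against 174, 257 and 194, and did not pass (limma adjusted p = 0.0745). The subunit Rela overlapped between the groups, at 178, 282 and 200 against 315, 291 and 141.

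Upstream bases of the inflammatory genes were read from the RefSeq promoter table (build GRCr8), which matched 15 of the 20 chemokines and 17 of the 21 NF-kB genes by symbol. The 250 bases before each start site were searched on both strands for GGNNTTTCC, an NF-kB type motif, and for GAAANNGAA, an interferon-stimulated response element type motif, which can overlap each other. GGNNTTTCC stood in 5.19% of all 33469 promoters, in 5.52% of those of tested genes, in 7 of 15 chemokine promoters (46.7%) and in 7 of 17 NF-kB promoters (41.2%). It stood in 2 of 17 cytokine promoters (11.8%) and in 0 of 12 acute phase and complement promoters. The stretches below are the 7 chemokine promoters that hold it and those of Nfkbiz and Ifi27, the risen genes with a match in the other inflammatory lists. They are written 5′ to 3′ on the strand of the gene, with each match of either motif in capitals.
Cxcl2 (chr14:17467285-17467343, minus strand): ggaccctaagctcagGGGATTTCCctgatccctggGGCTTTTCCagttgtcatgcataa
Ccl20 (chr9:91837055-91837093, plus strand): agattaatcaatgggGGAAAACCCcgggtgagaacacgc
Cxcl1 (chr14:17479381-17479438, minus strand): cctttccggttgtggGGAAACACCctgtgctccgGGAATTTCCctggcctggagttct
Cxcl6 (chr14:17596481-17596519, minus strand): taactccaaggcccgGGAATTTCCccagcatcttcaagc
Cxcl9 (chr14:16007057-16007095, plus strand): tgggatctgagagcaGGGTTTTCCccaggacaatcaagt
Cxcl10 (chr14:15988816-15988903, plus strand): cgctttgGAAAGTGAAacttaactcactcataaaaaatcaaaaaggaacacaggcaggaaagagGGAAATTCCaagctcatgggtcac
Cxcl11 (chr14:15973640-15973678, plus strand): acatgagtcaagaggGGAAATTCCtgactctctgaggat
Nfkbiz (chr11:58251694-58251720, plus strand): tatctttttggcctgGGAATTTCCagc
Ifi27 (chr6:128355128-128355251, plus strand): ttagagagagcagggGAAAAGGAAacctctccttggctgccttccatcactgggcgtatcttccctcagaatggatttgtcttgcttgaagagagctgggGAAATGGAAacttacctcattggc
Cxcl2 and Cxcl1 hold 2 matches of GGNNTTTCC each. The matches of GGNNTTTCC in Ccl20, Cxcl10 and Cxcl11 and the upstream match in Cxcl1 are on the opposite strand. Cxcl2 and Ccl20 rose, and the other 5 chemokines shown did not pass. For Ccl22 and Ccl2, which also rose, no match was found, and not every chemokine had a promoter to search. Cxcl6, which binds the same receptor type as Cxcl1, had 10.2, 127 and 4.95 in GDM-LF libraries, against 1.33, 1.3 and 1.33 in Lean-LF libraries (limma adjusted p = 0.0585). The interferon-inducible Cxcl11 had 470, 822 and 827, against 215, 461 and 296, with GDM-LF 1 close to Lean-LF 2 (limma adjusted p = 0.0585). Cxcl9, another, was under 8 in all 6 libraries. Both matches in Ifi27 and the upstream match in Cxcl10 are of GAAANNGAA, which stood in 8.12% of all promoters, in 6.05% of those of tested genes and in 16 of 23 promoters of the interferon response list (69.6%). A match describes letters and not a bound site. The NF-kB and interferon lists were chosen for those roles, and the chemokine list with earlier results of these data known. Their shares are therefore no independent result.

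Interferon and acute phase genes had the same direction but few calls. Over all tested genes 53.4% had a log2 fold change above 0, 12.9% lay wholly above and 0.851% rose. Of 32 interferon response genes 31 had higher means and 19 lay wholly above, with 1 risen, Ifi27, an interferon-inducible mitochondrial protein. Ifi27 had 1488, 1667 and 1500 in GDM-LF libraries, against 403, 714 and 823 in Lean-LF libraries (log2 1.32 ± 0.26), and its GDM-LF values were nearly equal. The list's median was 1.31, and 0.80 without GDM-LF 2, which was the highest library for 30 of the 32 (28.9% of all tested genes). Isg15, a ubiquitin-like modifier, had 38.0, 564 and 48.9, against 10.4, 10.0 and 10.3 (limma adjusted p = 0.0519). Of 20 acute phase and complement genes all had higher means and 2 rose, with a median of 1.53 (0.98 without GDM-LF 2). Fga, the fibrinogen alpha chain, had 226, 268 and 174, against 71.6, 46.1 and 73.8 (log2 1.80 ± 0.30), and the carrier protein Orm1 had 8.28, 14 and 4.37, against 0, 0.869 and 0.831. In both the groups lay apart. Complement C3 had 427, 1041 and 83.0, against 16.2, 53.9 and 31.9 (limma adjusted p = 0.0513).

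No leukocyte marker passed. The 20 macrophage markers had a median log2 fold change of -0.16, which was -0.62 without GDM-LF 2 and 0.27 without Lean-LF 3, and their summed level was 199, 1241 and 676 in GDM-LF libraries, against 438, 510 and 944 in Lean-LF libraries. The macrophage growth factor receptor Csf1r had 4.89, 22.5 and 22.1, against 29.6, 40.0 and 40.0. The pan-leukocyte marker Ptprc had 9.79, 38.7 and 19.2, against 6.12, 14.4 and 19.4. Of 13 T and B lymphocyte markers matched, 4 had enough reads to be tested. Their median was 0.62, with 3 of them higher (53.4% of all tested genes). The part of leukocytes in the inflammatory values was not tested. The T cell marker Cd3e had 2.26, 3.37 and 0, against 0, 0 and 0.333. In whole islets, more cells of a type and more RNA per cell cannot be told apart.

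Cytosolic ribosomal proteins, the protein parts of the translating ribosome, were the list with the most calls. Of 79 tested members 25 rose and none fell, where 0.851% of all tested genes rose. All 79 had a log2 fold change above 0, as did 53.4% of all tested genes. Their log2 fold changes ran from 0.31 to 1.93, with a median of 1.14. Rps14, of the small subunit, had 6565, 9603 and 3034 in GDM-LF libraries, against 1054, 1233 and 2669 in Lean-LF libraries. GDM-LF 3 and Lean-LF 3 nearly met, while the other libraries lay far apart (log2 1.93 ± 0.40, limma adjusted p = 0.0477). Rpl9, of the large subunit, had 7730, 8513 and 5024, against 1572, 1528 and 3554 (log2 1.76 ± 0.33). Rps20, of the small subunit, had 5019, 6278 and 3350, against 1200, 1138 and 2776 (log2 1.60 ± 0.34). In each, Lean-LF 3 was the highest Lean-LF library, as it was for 75 of the 79 members and for 4771 of all 12339 tested genes. GDM-LF 2 was the highest of all 6 libraries for 77 members (28.9% of all tested genes). Near-identical copies and pseudogenes of these genes can share reads, so single members are less certain than the list.

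Ribosomal protein transcripts are short, and short genes were higher in GDM-LF islets in general. The 247 tested genes under 500 bases of exon had a median log2 fold change of 0.84, the 4763 genes from 2000 to under 4000 bases had -0.07, and the 192 genes of 8000 bases and over had -0.26. Of the 105 risen genes 58 were under 1000 bases, as were 10.8% of all tested genes. Of the 90 fallen genes 75 were of 2000 bases or more, as were 53.9% of all tested genes. Spearman's rho between length and log2 fold change was -0.33 over the 12339 genes, which share the 6 libraries and are not independent replicates. With a length trend removed from each library, the ribosomal proteins' median was 0.58 and no gene passed (lowest adjusted p 0.0649, 2915 genes at an unadjusted p under 0.05). The chemokines' median was then 1.3, and Rps14 stood at 1.32.

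**Figure D3:**
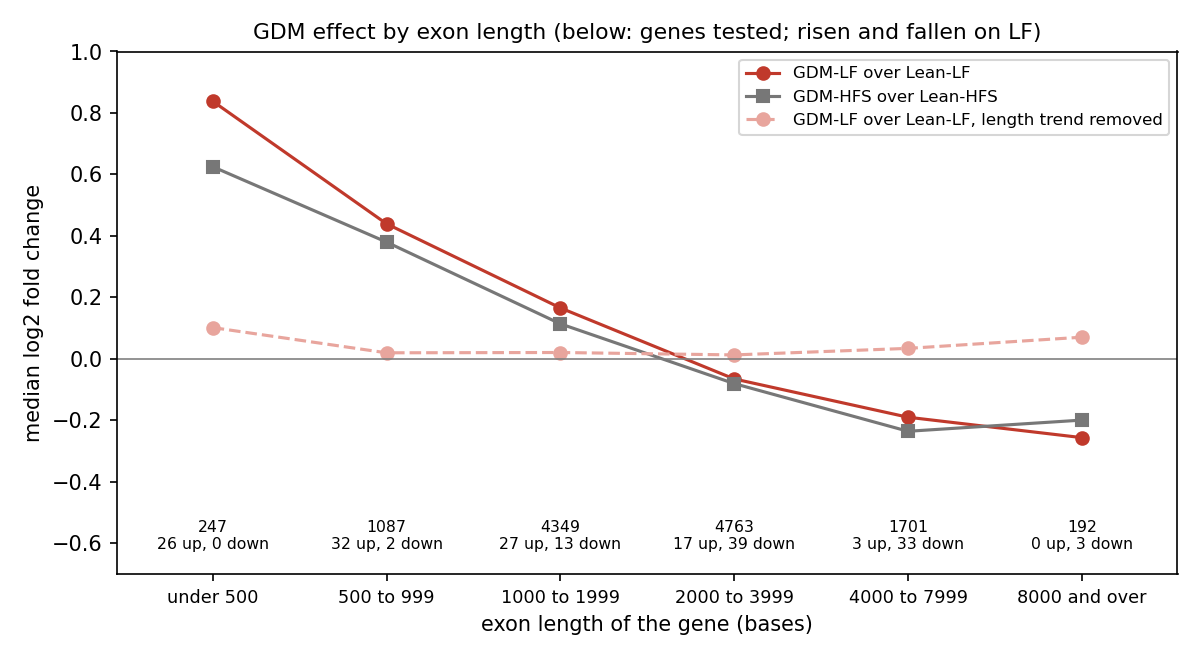
Median log2 fold change of genes grouped by exon length in bases, for GDM-LF over Lean-LF (red, solid), for GDM-HFS over Lean-HFS (grey) and for GDM-LF over Lean-LF with a length trend removed per library (light red, dashed), with the genes tested and the risen and fallen genes on the LF diet printed below. The median falls from 0.84 under 500 bases to -0.26 at 8000 bases and over on the LF diet.

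The lists of mitochondrial ribosome and respiratory chain genes held 5 rises, where 0.851% of all tested genes rose. Of 68 mitochondrial ribosomal proteins 2 rose, Mrpl14 (log2 1.05 ± 0.20) and Mrpl45 (log2 0.74 ± 0.17), and the list's median was 0.36, or 0.10 with the length trend removed. In respiratory complex I, the entry point of the electron transport chain, 1 of 34 subunits rose. This was Ndufab1, also the mitochondrial acyl carrier protein, at 323, 295 and 312 in GDM-LF libraries, against 160, 170 and 202 in Lean-LF libraries (log2 0.81 ± 0.16), with tight groups that lay apart. The median of complex I was 0.57, and 0.06 with the length trend removed. In complexes II to V 2 of 40 subunits rose, the cytochrome oxidase subunit Cox7a2 (log2 1.11 ± 0.25) and the ATP synthase subunit Atp5j2 (log2 1.18 ± 0.27), with a median of 0.42, or -0.05 with the trend removed. The complex I core subunit Ndufs1 had 379, 307 and 400, against 524, 462 and 493 (log2 -0.45 ± 0.17, limma adjusted p = 0.115).

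Genes that beta cells use to sense and respond to nutrients were lower in GDM-LF islets on balance, with few calls. Of 20 genes of glucose sensing and beta cell maturity 2 fell and none rose, where 0.729% of all tested genes fell. The list's median log2 fold change was -0.65 (-0.49 without GDM-LF 2). Ffar1, the free fatty acid receptor that amplifies insulin secretion (rn5 chr1:90463925-90464829, minus strand), had 91.8, 91.8 and 135 in GDM-LF libraries, against 313, 282 and 194 in Lean-LF libraries. All GDM-LF libraries were below all Lean-LF libraries, and the log2 fold change was -1.3 ± 0.27 (limma adjusted p = 0.0477), or -1.21 without GDM-LF 2. Robo1, a receptor for Slit ligands that is known for its part in islet architecture in mice, had 326, 179 and 422, against 851, 816 and 530 (log2 -1.3 ± 0.27, -0.95 without GDM-LF 2). The groups lay apart, with GDM-LF 2 the lowest.

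Members named for their role in glucose sensing did not pass. The glucose transporter Slc2a2 had 4507, 2879 and 6751 in GDM-LF libraries, against 11751, 9449 and 7962 in Lean-LF libraries (log2 -1.11 ± 0.32, limma adjusted p = 0.0644), without overlap. The incretin receptor Glp1r had 915, 513 and 1102, against 1884, 1704 and 1177 (limma adjusted p = 0.083). The vitamin D receptor Vdr had 54.6, 49.1 and 142, against 349, 306 and 142, and narrowly missed (limma adjusted p = 0.051). For Slc2a2, Glp1r and Vdr, GDM-LF 3 and Lean-LF 3 were the libraries of the opposite groups closest to each other.

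Of 18 ion channel genes of insulin secretion 1 fell (0.729% of all tested genes) and 10 lay wholly below (12.4% of all tested genes). The list's median was -0.58 (-0.27 without GDM-LF 2). The ATP-sensitive channel's pore Kcnj11 had 723, 745 and 1116, against 1449, 1476 and 1150 (limma adjusted p = 0.0702). Its sulfonylurea receptor Abcc8 had 747, 527 and 864, against 1578, 1538 and 927 (limma adjusted p = 0.0673). Neither pair of groups overlapped. Kcnb2 (log2 -1.02 ± 0.22), a delayed-rectifier potassium channel, and Kcnh2 (log2 -1.10 ± 0.21), which encodes the ERG potassium channel, also fell. They are no members of that list and are given because their values were seen to pass.

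No member of 3 further beta cell lists passed. The 15 beta cell transcription factors had a median of -0.53 and the 20 exocytosis genes one of -0.60, against 0.05 over all genes. They had 4 and 6 members wholly below, as were 12.4% of all tested genes. Nkx6-1, a beta cell identity factor, had 324, 150 and 484 in GDM-LF libraries, against 772, 703 and 443 in Lean-LF libraries (limma adjusted p = 0.0855), and its groups overlapped. Pdx1, the factor that drives insulin transcription, had 419, 454 and 813, against 806, 833 and 695 (limma adjusted p = 0.18), with GDM-LF 3 inside the Lean-LF range. The granule trafficking GTPase Rab3a had 85.1, 62.3 and 105, against 190, 152 and 132 (limma adjusted p = 0.0548), without overlap. The 15 granins and prohormone processing genes had a median of -0.58, and -0.24 without GDM-LF 2. The prohormone convertase Pcsk2 had 6244, 6296 and 10008, against 14429, 12046 and 9763 (limma adjusted p = 0.135). GDM-LF 2, with the highest acinar level, was the lowest library for 15 of the 20 glucose sensing genes, against 24.9% of all tested genes. The part of the acinar level in the beta cell lists was not tested beyond a covariate. With the acinar level as a covariate no gene passed (lowest adjusted p 0.086, 2564 genes at an unadjusted p under 0.05). GDM-LF 3 was below every Lean-LF library for 3451 of all 12339 tested genes. It was so for 8 of the 20 glucose sensing genes, 12 of the 18 channels and 8 of the 20 exocytosis genes. The transcription factors and the granin and processing genes had 5 of 15 each. The lists are short, and their counts were not tested against the share of all tested genes. What part the acinar level had in these counts was not tested.

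**Figure D4:**
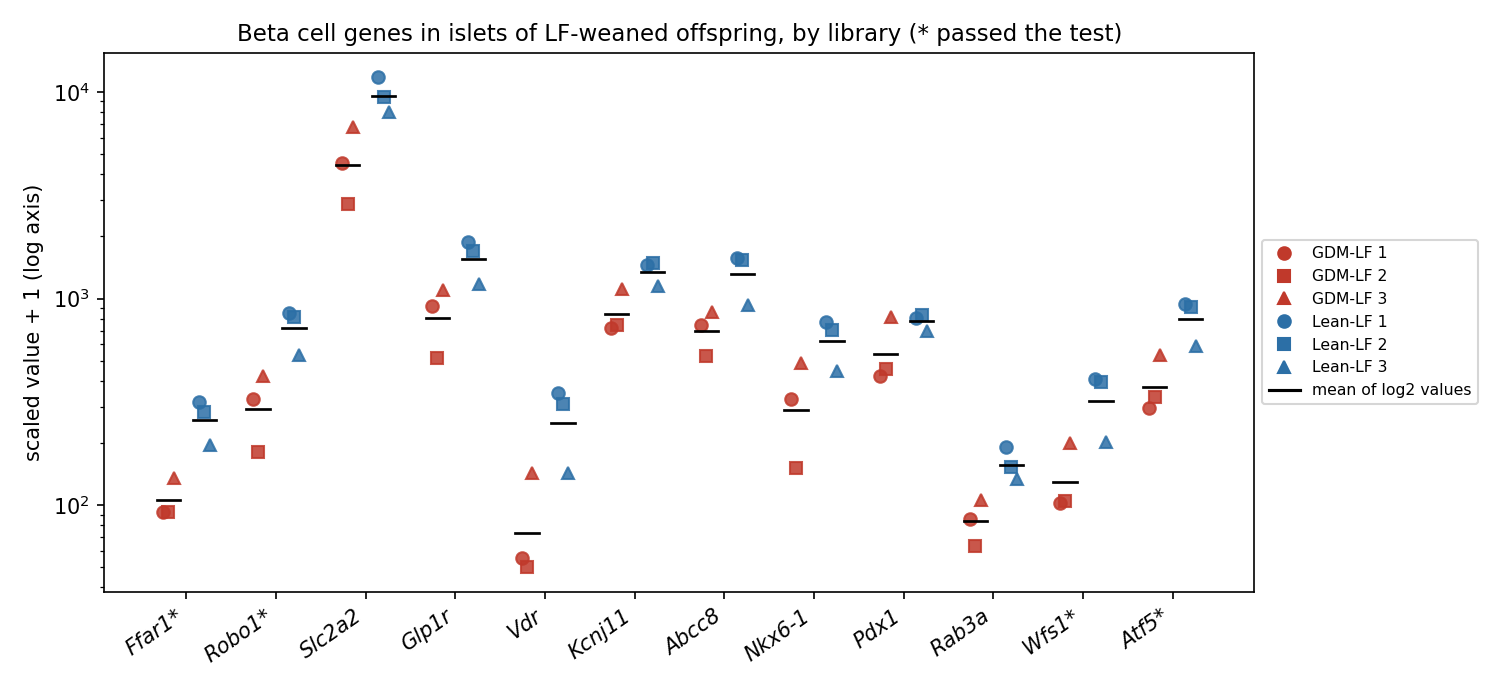
Scaled value plus 1 (log axis) of 12 beta cell genes in each GDM-LF library (red, left) and Lean-LF library (blue, right), with marker shapes for the library number, bars for means of the log2 values, and an asterisk for genes that passed the test. The 4 marked genes, Ffar1, Robo1, Wfs1 and Atf5, have no overlap, and for Wfs1 GDM-LF 3 and Lean-LF 3 (triangles) are almost level.

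Hormone transcripts themselves did not pass. None of 11 islet hormones rose or fell in the fit, whose standard errors for the most abundant genes were wide (2.63 for Ins1 with the mean-variance trend, 0.189 without it). Without the trend Ins1 had a log2 fold change of 0.18 (limma adjusted p = 0.571) and Ins2 one of -0.01 (limma adjusted p = 0.976). Ppy, pancreatic polypeptide, had 14026, 5459 and 18009 in GDM-LF libraries, against 2012, 2985 and 2488 in Lean-LF libraries. All GDM-LF libraries were above all Lean-LF libraries, with GDM-LF 2 the lowest of the 3, and the log2 fold change of 2.18 ± 0.56 narrowly missed (limma adjusted p = 0.0569). Sst, somatostatin, had 1495, 2173 and 1324, against 914, 821 and 1052 (limma adjusted p = 0.14). Gcg, glucagon, overlapped at 26953, 103090 and 66149 against 56213, 31515 and 67667. Islet amyloid polypeptide, Iapp, which beta cells secrete with insulin, had 25702, 28124 and 32264, against 18206, 17604 and 22741, without overlap. Its log2 fold change was 0.56 ± 0.35 in the fit with the mean-variance trend (limma adjusted p = 0.324). None of 12 alpha cell markers passed (median 0.16). Of 10 delta and PP cell markers 8 had higher means and 1 fell, with a median of 0.77. Over all tested genes 53.4% had a log2 fold change above 0 and 0.729% fell.

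Genes of the endoplasmic reticulum stress response had 2 calls, both falls, where 0.729% of all tested genes fell. Wfs1, the endoplasmic reticulum protein wolframin (rn5 chr14:78613741-78630689, plus strand), had 101, 103 and 200 in GDM-LF libraries, against 408, 394 and 200 in Lean-LF libraries. GDM-LF 3 and Lean-LF 3 were almost equal, and the log2 fold change was -1.31 ± 0.30 (limma adjusted p = 0.0481). Atf5, a stress-responsive transcription factor, had 294, 331 and 534, against 937, 912 and 588 (log2 -1.09 ± 0.24). The chaperone Hspa5 had 8611, 9866 and 18633, against 24024, 17447 and 21475 (limma adjusted p = 0.161), with overlap. The stress-induced death factor Ddit3 had 220, 273 and 401, against 253, 215 and 367 (limma adjusted p = 0.879). The medians were -0.18 for the 27 ATF6, chaperone and degradation genes and -0.18 for the 19 PERK and ATF4 genes.

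Metabolic and stress lists held scattered calls. Over all tested genes 0.851% rose, 0.729% fell and 53.4% had a log2 fold change above 0. Ldha, lactate dehydrogenase A, is among the "disallowed" genes that mature beta cells keep low, and had 2475, 1912 and 1592 in GDM-LF libraries, against 565, 584 and 820 in Lean-LF libraries (log2 1.60 ± 0.33). The groups lay far apart. Of 19 disallowed genes it alone rose, 17 had higher means, and the median was 0.79. None of 11 progenitor and dedifferentiation genes passed, although 10 had higher means and their median was 1.11, or 0.58 without GDM-LF 2. Aldh1a3, an enzyme of retinoic acid synthesis known as a mark of failing beta cells in mice, had 16.2, 43.2 and 1.46, against 2.66, 2.17 and 2.66, with GDM-LF 3 below the Lean-LF libraries (limma adjusted p = 0.19). The lactate transporter Slc16a1 had 101, 262 and 60.3, against 48.5, 46.5 and 42.0 (limma adjusted p = 0.115). Srebf1, the transcription factor of fatty acid synthesis, had 202, 198 and 288, against 715, 448 and 418 (log2 -1.18 ± 0.27), the 1 fallen gene of 22 for fatty acid and triglyceride synthesis. The synthase Fasn had 551, 454 and 459, against 1008, 893 and 508 (limma adjusted p = 0.146). Among antioxidant genes Txn1, thioredoxin, rose (log2 1.11 ± 0.23, 0.37 with the length trend removed) beside Sod2, 2 of 27 members.

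Single members of 5 other lists rose, where 0.851% of all tested genes rose. Higd1a, a hypoxia-inducible mitochondrial protein, had 533, 684 and 429 in GDM-LF libraries, against 107, 107 and 282 in Lean-LF libraries (log2 1.86 ± 0.40). Ier3, an immediate early gene, had 389, 839 and 304, against 124, 181 and 155 (log2 1.60 ± 0.33), while Fos, another, had 65.9, 1461 and 176, against 107, 101 and 137. GDM-LF 2 was the highest library for 27 of the 30 immediate early genes (28.9% of all tested genes). The median of that list was 1.01, and 0.41 without GDM-LF 2. Hspa1b, an inducible heat shock protein 70, had 36.9, 248 and 73.7, against 20.5, 12.2 and 17.3 (log2 2.36 ± 0.52, 1.62 without GDM-LF 2 and 2.98 without GDM-LF 1), and its near-identical copy Hspa1a may share its reads. Mdm2, the ubiquitin ligase that restrains p53 (log2 0.82 ± 0.18), and Nr1d2, a repressor of the circadian clock (log2 0.96 ± 0.21), also rose, each without overlap. No member passed among cholesterol synthesis, fatty acid oxidation, insulin and IGF signalling, cell cycle, imprinted growth, or DNA methylation and histone enzyme genes. Irs2, an insulin receptor substrate, had 645, 316 and 810, against 1525, 1457 and 901 (limma adjusted p = 0.0517), and Igf2 had 216, 156 and 231, against 412, 445 and 261 (limma adjusted p = 0.0541).

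The largest rises outside the gene lists were spread over several functions. Ppp1r17, an inhibitor of protein phosphatases (rn5 chr4:150928122-150944836, plus strand), had 45.5, 35.9 and 32.3 in GDM-LF libraries, against 3.19, 2.61 and 5.48 in Lean-LF libraries. The GDM-LF libraries were close together, and the log2 fold change of 3.06 ± 0.51 was 3.09 without GDM-LF 2. Slfn4, a Schlafen family gene known as interferon-responsive in mouse myeloid cells, had 30.9, 63.4 and 21.0, against 0, 3.48 and 3.32 (log2 3.73 ± 0.70, 3.02 without Lean-LF 1). S100a6, a calcium-binding protein, had 783, 1192 and 172, against 48.7, 95.2 and 121 (log2 2.70 ± 0.61, 3.53 without GDM-LF 3), with GDM-LF 3 close to Lean-LF 3. Wnt7a, a secreted Wnt ligand, had 16.6, 12.6 and 2.33, against 0.266, 0.869 and 0 (log2 2.80 ± 0.64, 3.54 without GDM-LF 3). Tnfaip6, a hyaluronan-binding protein induced by tumour necrosis factor, had 94.8, 94.9 and 37.9, against 8.52, 11.3 and 20.3 (log2 2.39 ± 0.54). The annexin Anxa13 had 14.3, 16 and 12.8, against 3.19, 0.869 and 2.33 (log2 2.37 ± 0.46). In each of these the groups did not overlap.

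Map1a and Grin1 had the lowest log2 fold changes of the fallen genes. Map1a, a microtubule-associated protein, had 263, 152 and 359 in GDM-LF libraries, against 854, 1189 and 498 in Lean-LF libraries (log2 -1.71 ± 0.35). Grin1, the obligatory NMDA receptor subunit, had 34.6, 32.6 and 57.1, against 148, 166 and 94.4 (log2 -1.70 ± 0.31), and the GABA-B receptor subunit Gabbr2 had 68.5, 48.6 and 95.8, against 201, 231 and 119 (log2 -1.36 ± 0.27). In all these Lean-LF 3 was the lowest Lean-LF library and still above every GDM-LF library. The myosin Myo16 (log2 -1.60 ± 0.34), the teneurin Tenm4 (log2 -1.60 ± 0.36), the leucine-rich repeat proteins Lrrn2 (log2 -1.44 ± 0.29) and Lingo3 (log2 -1.41 ± 0.26), and Lhfpl4, a partner of GABA-A receptors (log2 -1.38 ± 0.27), fell as well. Of 24 neuronal and synaptic genes 1 fell, Grin1 (0.729% of all tested genes), with 9 wholly below (12.4% of all tested genes) and a list median of -0.66. Its members are long, with a median of 4138 bases against 2118 over all tested genes. Of 12 tested protocadherin gamma genes 7 fell, with log2 fold changes from -0.96 to -0.81. They share exons and so reads, which makes them closer to a single measurement, and they were named after their values were seen.

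The remaining genes among the largest falls were transporters and enzymes. The monoamine transporter Slc29a4 had 593, 381 and 858 in GDM-LF libraries, against 2151, 1915 and 1037 in Lean-LF libraries (log2 -1.49 ± 0.31). Gaa, the lysosomal alpha-glucosidase that breaks down glycogen, had 919, 636 and 1147, against 2949, 2536 and 1587 (log2 -1.38 ± 0.28). Both had their closest values in GDM-LF 3 and Lean-LF 3. Steroid sulfatase (Sts) had 74.9, 47.2 and 117, against 239, 216 and 152 (log2 -1.40 ± 0.29), and the sugar transporter Slc45a1 had 9.41, 12.6 and 23.0, against 38.6, 43.1 and 42.0 (log2 -1.49 ± 0.30). Neither overlapped.

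No marker of exocrine or supporting cells passed. The 29 tested acinar markers had a median log2 fold change of 1.25, which was -0.12 without GDM-LF 2. Their summed level was 53250, 800180 and 44657 in GDM-LF libraries, against 32218, 91428 and 48165 in Lean-LF libraries, so GDM-LF 1 and GDM-LF 3 lay inside the Lean-LF range. The Reg family, secreted proteins of acinar and stressed islet cells, summed to 6302, 51323 and 1845, against 607, 6898 and 1684. Among 15 duct markers the keratin Krt19 had 243, 404 and 178, against 58.6, 199 and 22.4, with overlap (limma adjusted p = 0.0802). The stellate cell and matrix markers summed to 17249, 5921 and 3361, against 3299, 2767 and 4648, and Col3a1 had 4358, 218 and 318, against 231, 192 and 668. GDM-LF 1 was the highest library for 15 of these 19 markers and for 19 of 30 cell cycle genes, against 2206 of all 12339 tested genes. The proliferation marker Mki67 had 63.2, 10.9 and 4.08, against 4.79, 6.52 and 3.49. The 17 endothelial markers summed to 1381, 1113 and 1058, against 1590, 1242 and 1466. The 10 matched adipocyte markers summed to 426, 1175 and 429, against 339, 272 and 370, so every GDM-LF sum lay above every Lean-LF sum. Of these markers 2 were at 0 in all 6 libraries, and 6 had enough reads to be tested. Adipoq was near the floor, at 2.26, 2.53 and 1.17 against 0, 0.869 and 0, and Plin1 was at most 0.753. Fabp4 had 73.0, 57.0 and 65.0, against 23.7, 20.9 and 45.5. The part of the adipocyte sum in other results was not tested. No Schwann cell or erythrocyte marker passed either.

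The same contrast on the other weaning diet, GDM-HFS over Lean-HFS, shares no library with the LF contrast. There 1 of 12339 genes passed (0.0081%), Anks1b, and 1758 had an unadjusted p under 0.05 (14.2%). Its libraries differed in rRNA, which held 4.34%, 1.84% and 2.55% of gene reads in GDM-HFS libraries, against 39.0%, 31.3% and 24.7% in Lean-HFS libraries, and in the length measure, at 0.29, 0.40 and 0.74 against -0.31, -0.10 and -0.18. Neither rRNA nor the length measure overlapped between the HFS groups, so the dam arm cannot be told apart from them there. With the rRNA level as a covariate limma called 0 genes on HFS (193 at an unadjusted p under 0.05). Since that covariate itself separates the HFS groups, the count cannot decide what part rRNA had. The part of the length measure in the HFS values was not tested. Of the 195 genes called on LF 186 had the same sign on HFS, as did 68.2% of all tested genes, and 73 of the 195 had an unadjusted interaction p under 0.05. The lists divided into those with similar medians on both diets and those without. The cytosolic ribosomal proteins had medians of 1.14 on LF and 0.90 on HFS, complex I 0.57 and 0.60, and length bins under 500 bases 0.84 and 0.63. The chemokines had 1.91 on LF and 0.16 on HFS, NF-kB genes 1.21 and 0.14, and interferon genes 1.31 and 0.17. Acute phase genes had 1.53 and 0.44, and glucose sensing genes -0.65 and -0.15. Without GDM-LF 2 the LF medians were 1.17 for chemokines, 0.87 for NF-kB, 0.80 for interferon and 0.98 for acute phase genes. In each of these inflammatory lists Lean-HFS 3 had a higher mean log2 level than every GDM-HFS library. For chemokines it was 3.73, against 3.11, 3.48 and 3.56. Its acinar level was 11.55, against 9.61 and 9.26 in Lean-HFS 1 and 2. What part Lean-HFS 3 had in the HFS medians was not tested.

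No gene passed the test of that difference, the interaction of dam and weaning diet (0 of 12339 genes, 0.0%; limma, lowest adjusted p 0.784). At an unadjusted p under 0.05 there were 730 genes (5.92%), 425 of them with a higher log2 fold change on LF and 548 with the larger absolute log2 fold change on LF, and edgeR and DESeq2 also called 0. Among chemokines 9 of 20 had such an unadjusted p, all with a higher log2 fold change on LF, as did 7 of 21 NF-kB genes, 8 of 20 acute phase genes and 8 of 32 interferon genes, against 0 of 79 ribosomal proteins. The values of Ccl2 gave log2 fold changes of 3.89 on LF and 1.12 on HFS, and those of Nfkbiz 1.96 and 0.14. For Ffar1 they were -1.3 and -0.37, and for Rps14 1.93 and 1.79. The genes of lowest interaction p were Pcdhb6, Eif1, Slc45a1, Ube2a, Ptpn12 and Pcdhb2. Eif1, a factor of start codon selection, had 1170, 1017 and 1143 in GDM-LF libraries, against 624, 1144 and 569 in Lean-LF libraries, with log2 fold changes of 0.58 on LF and -0.97 on HFS. A difference between diets is therefore not shown for any single gene.

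**Figure D5:**
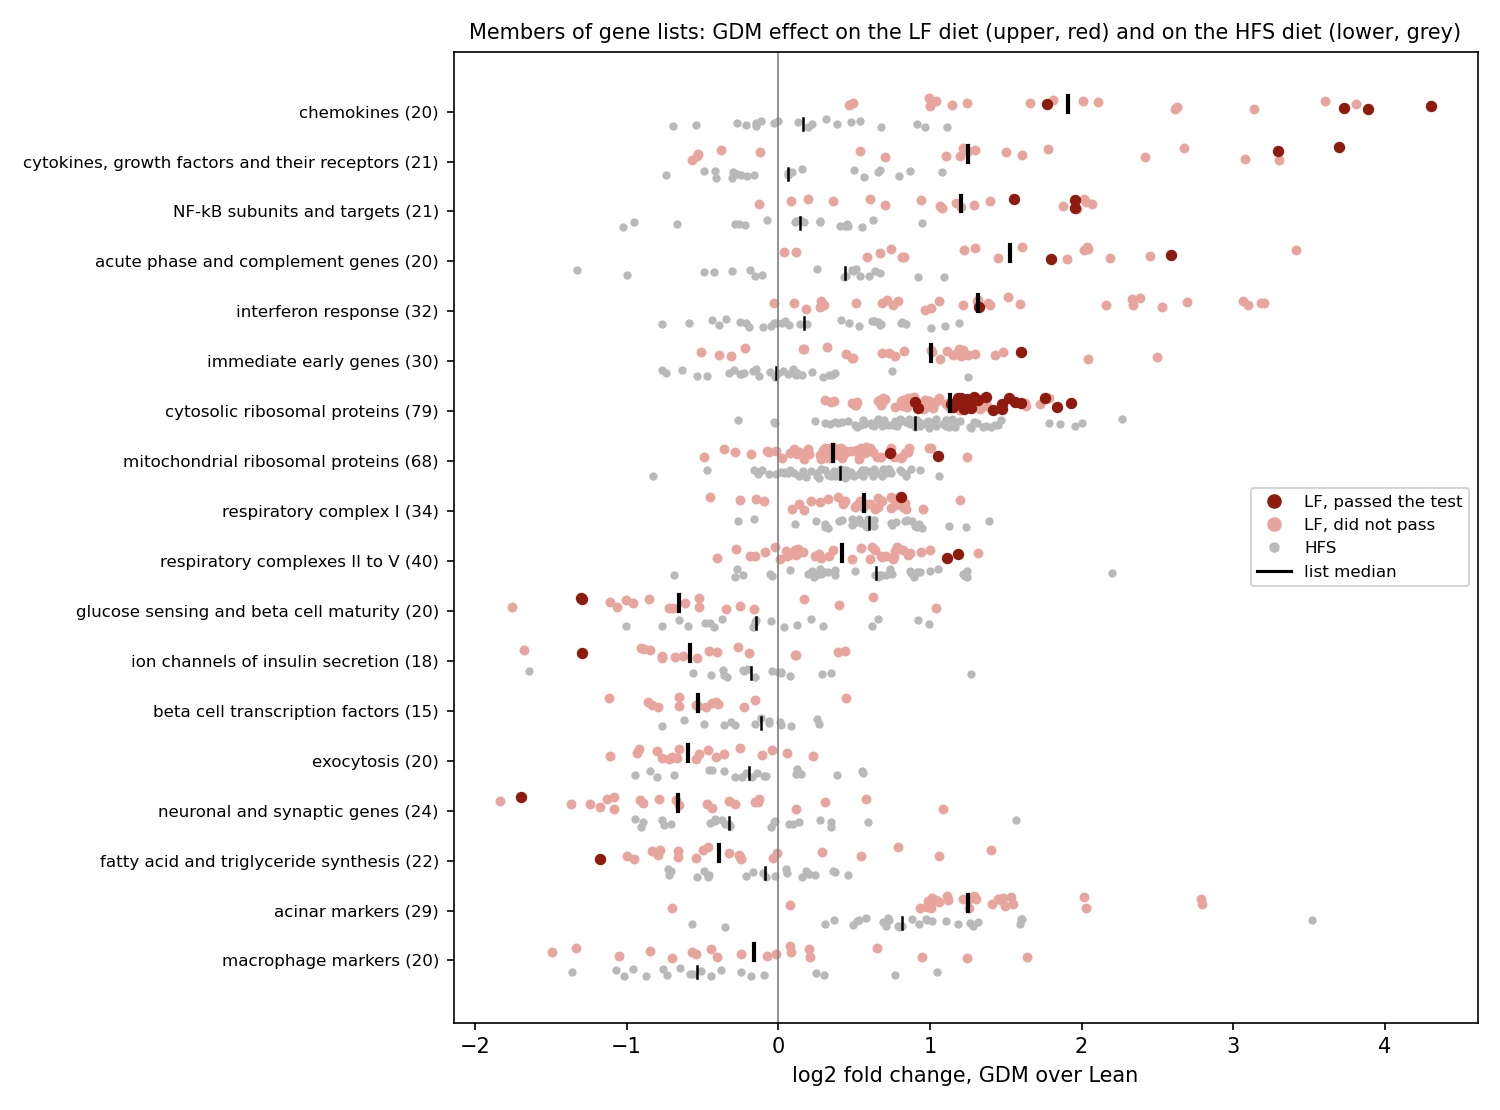
Log2 fold changes of the tested members of 18 gene lists (number of members in parentheses) for GDM-LF over Lean-LF (upper, red; dark where the gene passed) and GDM-HFS over Lean-HFS (lower, grey), with list medians as black bars. Chemokine medians are 1.91 on LF and 0.16 on HFS, and those of cytosolic ribosomal proteins 1.14 and 0.90.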

How the data were processed

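Per the labels' protocols, a stranded library kit followed removal of rRNA. The submitters' processing notes name STAR 2.5.1b, HOMER 4.9 and DESeq2. The deposited values are a depth-scaled signal per gene on rn5, summed over exons on both strands, per the file headers, so overlapping and antisense genes cannot be told apart. The header names FPKM, but the values are not divided by length. They are whole multiples of 1 step per library, which gave whole reads for 100% of values of up to 1000 reads (tolerance 0.1 read). The treatment of multiply mapped reads is not stated.

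Size factors were median ratios to a geometric mean library, over the 11337 of 17407 genes with no 0 in any of 12 libraries. The filter was a mean scaled value of 1 or more. Genes were tested with limma 3.58.1 (R 4.3.3, mean-variance trend) on log2(scaled value + 1), with 1 mean per group and a threshold of 0.05 on Benjamini-Hochberg adjusted p. Log2 fold changes on this scale understate changes of low genes. edgeR 4.0.16 and DESeq2 1.42.0 were run on the recovered reads without rRNA entries. On simulated data the fit recovered 15 of 100 genes with a true absolute log2 change of 1, and 95 of 100 with 2. The simulation gave all genes the same dispersion and had no library that stood apart, unlike these data. Floors of 3 reads cover counting error only.

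Groups were taken from the titles. The comparison, the 46 gene lists and the alternatives were chosen with earlier results of these data known, so lists have counts and medians but no test. Named genes are the 12 largest rises and 12 largest falls that passed without overlap and with a full symbol, the 6 genes of lowest interaction p, and up to 4 passing members plus preset key members of each list; others are said to be chosen on their values, or are further members of the lists. Some list genes were not matched and are not analysed here. Some passing or key members of the lists are not reported here.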

Additional observations from a re-analysis of the deposited data

How the results depend on the processing

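The count of 195 genes changed between GDM-LF and Lean-LF depended on the processing. It was 205 with TMM factors, 231 with a minimum mean value of 5, 486 without rescaling, 734 with the rRNA level as a covariate, 1688 with DESeq2 and 1768 with limma array weights. It was 0 with a pseudocount of 0.1 or 5, without a filter on low values, in the 6 LF libraries alone, without a mean-variance trend, with edgeR, after adjusting for the acinar level, after removing the length trend and without the libraries with the letter K. That last fit leaves GDM-LF 3 alone, assumed to vary like the other groups. These limma and edgeR fits of count 0 held between 974 (letter K) and 3478 (edgeR) genes at an unadjusted p under 0.05, and the lowest adjusted p was 0.0501 and 0.051 with the pseudocounts of 0.1 and 5. Leaving out 1 library at a time gave between 0 and 1726 genes. The cause of these shifts was not tested. With the replicate block the count was 0 (3147 at an unadjusted p under 0.05), and the numbers do not pair the libraries: deviations of same-numbered libraries correlated at -0.01, 0.15 and -0.12.

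The count of 1 gene for GDM-HFS against Lean-HFS was 2 without rescaling, 57 with array weights, 268 with DESeq2, 2 with the replicate block, between 0 and 152 with 1 LF library left out, and 0 without the trend, without the letter K or with the acinar or rRNA covariate. The interaction count was 0 in all 21 alternatives that gave a value. Of the named genes, the 53 that passed kept their direction in every alternative fit, with 754 of their values no longer past the threshold and 410 past it, and 135 did not pass, with 192 of their values past it elsewhere. Leaving out 1 library could not reverse those 53, whose groups did not overlap. With 3 libraries a group, several of which stand apart in acinar, matrix or rRNA level, the count of genes that pass moves with each library. Lean-LF 2 had the fewest reads outside rRNA in the LF groups, 10202213, and the highest floor, a scaled value of 1.3 for 3 reads, which limits low genes.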
